A study of Drosophila melanogaster with 6 samples.

Results

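The genes described here encode 6 transcription factors of sensory organ and neuron identity outside the Pax family: pros, acj6, scrt, pdm3, onecut and sens. They were chosen by symbol, with no measured value in the rule, but with earlier results of these data known. All 6 were found by their FlyBase identifiers among the 17476 genes counted in each library. The libraries came from whole wings of flies aged 3 days, either mutant for Poxn (allele Poxn 70) or of the control strain w1118 Canton-S, to which the methods state that the mutant line had been backcrossed. There were 3 libraries of each genotype, and the labels call them independent collections of hand-dissected wings, each pooled from many flies. The sexes are not stated. Each library is therefore an average over many animals and over all cell types of the wing. In such bulk RNA, fewer cells of a type and less RNA per cell cannot be told apart.

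Taste bristles stand along the wing margin. In each, neurons that sense chemicals sit with supporting cells that build the shaft, the socket and a sheath around the dendrites, and a neuron that senses touch can share the bristle. All of these cells descend from a single precursor, whose fate is set by proneural factors and then by genes such as Poxn, a Pax gene that selects the chemosensory over the mechanosensory type of bristle. Zinc finger, homeodomain and POU-domain factors act during and after these divisions, some to commit the precursor and others to set and keep the character of the finished neuron or supporting cell. The comparison asks which of these factors differed in transcript level between the 2 kinds of wing.

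The 6 genes lie on 5 chromosome arms (coordinates of the BDGP6 annotation, a release 6 assembly like the one the authors aligned to). pros (FBgn0004595) spans 3R, 11328480 to 11407627, on the forward strand, and acj6 (FBgn0000028) spans X, 15350239 to 15379064, on the reverse strand. pdm3 (FBgn0261588) spans 2R, 8327490 to 8396280, forward, and onecut (FBgn0028996) spans chromosome 4, 598555 to 607649, reverse. scrt (FBgn0004880) and sens (FBgn0002573) are both on 3L, at 3983896 to 3994003 (forward) and 13396228 to 13401125 (reverse). Other genes are nested within 3 of the 6. pdm3 holds 10 genes in its span, none of which shares an exon base with it. pros shares 72 exon bases with a noncoding RNA gene on the opposite strand, which had between 0 and 2 counts in every library.

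The libraries were uneven. Counts on genes ran from 14021115 to 16182811 in the libraries labelled Poxn and from 10074860 to 14269486 in those labelled control, and the 50 most abundant genes took 30.9% to 32.3% and 37.7% to 62.4% of them. The TMM factors that correct for this were 1.76 to 1.86 in the libraries labelled Poxn, and 0.246, 0.522 and 1.28 in control replicates 1 to 3. Genes whose longest transcript is under 600 bases took 5.68% to 7.03% of counts in the libraries labelled Poxn. In those labelled control they took 16.6% to 30.6%. Biological variation, as edgeR's coefficient, was 20.1% for the libraries labelled Poxn and 64.6% for those labelled control. The Poxn transcript itself, the check of the labels, had 92, 86 and 85 counts in the libraries labelled Poxn and 0, 6 and 3 in those labelled control. The mutated gene was therefore not lower in the libraries that carry its name, and directions given here follow the labels as deposited. The marker genes ppk23 and ppk26 ran the way the labels say. The study had reported both from these same libraries, so they are no independent check of the labels. The chemosensory neuron gene ppk23 had 1, 0 and 0 counts in the libraries labelled Poxn and 272, 195 and 890 in those labelled control, and the mechanosensory neuron gene ppk26 had 1328, 2372 and 1849 in the libraries labelled Poxn and 19, 18 and 168 in those labelled control. Poxn replicate 3 stood apart by 4426 counts on 6 male accessory gland genes, against 67 and 53 in the other libraries labelled Poxn and 4 to 41 in those labelled control. In Poxn replicate 2, the flight muscle actin gene Act88F had 2583 counts, against 237 and 105 in the other libraries labelled Poxn and 5 to 379 in those labelled control.

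pros and acj6 were both lower in the libraries labelled Poxn, by 9.57-fold and 16.1-fold. scrt, pdm3 and onecut differed by less than 2-fold with edgeR and passed no adjusted threshold, and sens was almost without reads. Of the 6 genes 5 had enough counts to be tested, and 2 of these passed the criterion in the downward direction and 0 in the upward direction. The criterion took its limits from the study's methods (a fold above 4, adjusted p below 0.01) and its test from edgeR's quasi-likelihood test with Benjamini-Hochberg adjustment over 8973 tested genes. Across all tested genes, 0.602% were called lower in the libraries labelled Poxn and 0.0557% were called higher. At an adjusted p under 0.05 with no fold threshold, 2 of the 5 were again lower and 0 higher, where 4.95% and 2.69% of all tested genes were (7.63% in either direction). With unadjusted p under 0.05, 3 of the 5 were lower and 0 higher, where 17.8% of all tested genes were lower and 14.1% higher. The filter on low counts is part of this count, since acj6 reached the filter's level of 0.707 CPM (counts scaled to a library of a fixed size, here its total) in 0 of the libraries labelled Poxn and in all 3 labelled control, and so could enter the test only through the control libraries.

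pros encodes a homeodomain protein that is handed to 1 daughter cell when neural precursors divide, and in bristle lineages it marks the branch that gives the neuron and its sheath cell and later stays in the sheath cell. It had 316, 219 and 222 counts in the libraries labelled Poxn and 311, 575 and 972 in those labelled control. With TMM factors in the scaling, its levels in CPM were 11.4, 7.28 and 8.50 in the libraries labelled Poxn, against 97.7, 109 and 53.3 in those labelled control. The 3 Poxn-labelled libraries lay close together, and all were far below the lowest control library, replicate 3. The means were 9.05 ± 2.11 CPM and 86.8 ± 29.6 CPM (SD, n = 3 each), which is −3.26 on the log2 scale with a 95% interval from −4.20 to −2.31 (adjusted p = 0.00682, edgeR).

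The size of the fall in pros depended on the scaling. With libraries scaled by total counts, its CPM was 19.99, 13.5 and 15.8 in the libraries labelled Poxn, against 24.0, 57.1 and 68.1 in those labelled control. The groups still did not overlap, but the log2 fold change was −1.60 and the call was lost (adjusted p = 0.185, edgeR). Under that scaling the median of all genes moved to 1.39 on the log2 scale, and pros stood at −2.99 relative to this median, against −3.27 relative to the median with TMM factors. By either scaling few tested genes had a lower fold change than pros (2.24% with total counts and 2.76% with TMM factors). Leaving out any of the 3 libraries labelled Poxn, or control replicate 1, also ended the call, with log2 fold changes of −3.45, −3.11, −3.20 and −3.16 for Poxn replicates 1 to 3 and control replicate 1 (adjusted p between 0.0251 and 0.0844, edgeR). With offsets for transcript length, the log2 fold change of pros was −2.50 and the call was kept (adjusted p = 0.00593, edgeR).

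acj6 encodes a POU-domain factor known in olfactory neurons, where it helps choose the receptor gene and the target of the axon. It had 11, 9 and 3 counts in the libraries labelled Poxn and 16, 17 and 94 in those labelled control, so each value rests on few reads. Its CPM was 0.396, 0.299 and 0.115 in the libraries labelled Poxn, against 5.03, 3.23 and 5.15 in those labelled control. Every control library was above all of the Poxn-labelled libraries. The means were 0.270 ± 0.143 CPM and 4.47 ± 1.07 CPM (SD, n = 3 each), which is −4.01 on the log2 scale with a 95% interval from −5.28 to −2.75 (adjusted p = 0.00996, edgeR). This adjusted p was just under the threshold of 0.01 and moved past it in 12 of 21 alternatives. The 21 include changes of threshold alone, which reuse the main fit and so keep its adjusted p.

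With total counts, acj6 had 0.696, 0.556 and 0.214 CPM in the libraries labelled Poxn and 1.24, 1.69 and 6.59 in those labelled control. The groups did not overlap, and the log2 fold change was −2.67 (adjusted p = 0.0877, edgeR). Relative to the median of all genes it was −4.07, against −4.02 with TMM factors, and 1.03% and 1.49% of tested genes had a lower fold change under the 2 scalings. Without each of the 6 libraries in turn, the log2 fold change of acj6 ran from −4.36 to −3.65 and its adjusted p from 0.00738 to 0.105 (edgeR), and only the fit without control replicate 2 kept it under 0.01.

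**Figure D1:**
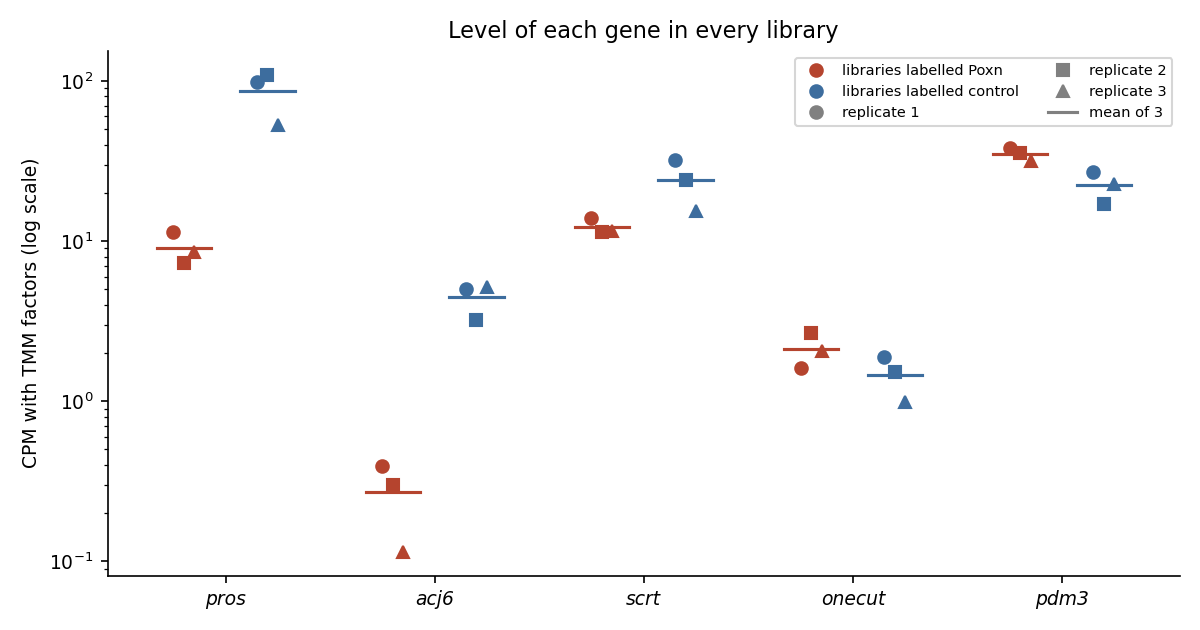
CPM with TMM factors (vertical axis, log scale) of the 5 tested genes in each of the 3 libraries labelled Poxn (left of each pair) and the 3 labelled control (right), with a bar at the mean of 3. For pros and acj6 all Poxn-labelled libraries lie below all control libraries, at means of 9.05 against 86.8 and 0.270 against 4.47 CPM, while the onecut libraries overlap.

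scrt encodes a zinc finger protein of the Snail family that is made in most neurons and promotes their development. It had 389, 342 and 301 counts in the libraries labelled Poxn and 102, 127 and 283 in those labelled control. Its CPM was 14, 11.4 and 11.5 in the libraries labelled Poxn, against 32.04, 24.1 and 15.5 in those labelled control. The Poxn-labelled libraries were below the control libraries, with control replicate 3 only slightly above Poxn replicate 1. The log2 fold change was −0.95, with a 95% interval from −1.77 to −0.13 and an adjusted p of 0.112 (edgeR), so scrt was not called, although its unadjusted p was 0.0279. DESeq2 gave a log2 fold change of −1.09 with an adjusted p of 0.0416, past 0.05 but under the fold of the criterion. Its direction turned with the scaling. With total counts the libraries labelled Poxn were the higher ones, at 24.6, 21.1 and 21.5 CPM against 7.88, 12.6 and 19.8 CPM in those labelled control, and the log2 fold change was 0.74 (adjusted p = 0.540, edgeR), which is −0.66 relative to the median of all genes under that scaling.

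pdm3 encodes another POU-domain factor, which acts in olfactory neurons on axon targeting and receptor expression. It had 1060, 1072 and 821 counts in the libraries labelled Poxn and 86, 90 and 413 in those labelled control, the highest counts of the 6 genes in the Poxn-labelled libraries. Its CPM was 38.2, 35.6 and 31.4 in the libraries labelled Poxn, against 27.0, 17.1 and 22.6 in those labelled control. All Poxn-labelled libraries were above all control libraries, as they were with total counts (58.6 to 67.0 CPM in the libraries labelled Poxn and 6.65 to 28.9 CPM in those labelled control). The log2 fold change of 0.66 had a 95% interval from −0.07 to 1.38 and did not pass (adjusted p = 0.192, edgeR). That interval leaves out a change as large as 4-fold in either direction, and with total counts the log2 fold change was 2.11 (adjusted p = 0.102, edgeR).

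onecut encodes a factor with a single cut domain and a homeodomain that is found in neurons of the central and peripheral nervous systems. It had 45, 80 and 54 counts in the libraries labelled Poxn and 6, 8 and 18 in those labelled control. Its CPM was 1.62, 2.66 and 2.07 in the libraries labelled Poxn, against 1.88, 1.52 and 0.986 in those labelled control, so the groups overlapped. The log2 fold change was 0.62 with a 95% interval from −0.45 to 1.68 (adjusted p = 0.399, edgeR), and 2.19 with total counts (adjusted p = 0.133, edgeR), where the groups did not overlap.

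sens encodes a zinc finger protein that works with the proneural factors to commit sensory organ precursors. It had 0, 0 and 0 counts in the libraries labelled Poxn and 1, 1 and 0 in those labelled control. A count of 0 allows up to 3 counts, or 0.0997 to 0.115 CPM in the libraries labelled Poxn, which covers counting error only. All 6 counts were under 3, so no difference in sens was detectable at this depth and no fold is given.

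Across all tested genes, the libraries of the 2 labels did not overlap in 40.4% with TMM factors (17.9% with Poxn lower and 22.5% with Poxn higher) and in 60.5% with total counts (2.72% and 57.8%). Lack of overlap was thus common in these data with Poxn higher under total counts, the pattern of pdm3, onecut and scrt. With Poxn lower, the pattern of pros and acj6, it was uncommon under total counts only. With TMM factors 17.9% of tested genes had that pattern, and scrt had it too. With 3 libraries of each label, the smallest p of an exact two-sided permutation test is 0.1. On CPM with TMM factors this exact permutation test gave p = 0.1 for pros, acj6, scrt and pdm3 and p = 0.2 for onecut. An added scaling by the geometric mean of 14 neuron marker genes, chosen after the data had been seen, gave log2 fold changes of −3.09 for pros (adjusted p = 0.00529), −3.87 for acj6 (adjusted p = 0.0136), −0.73 for scrt, 0.84 for pdm3 and 0.77 for onecut (edgeR).

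**Figure D2:**
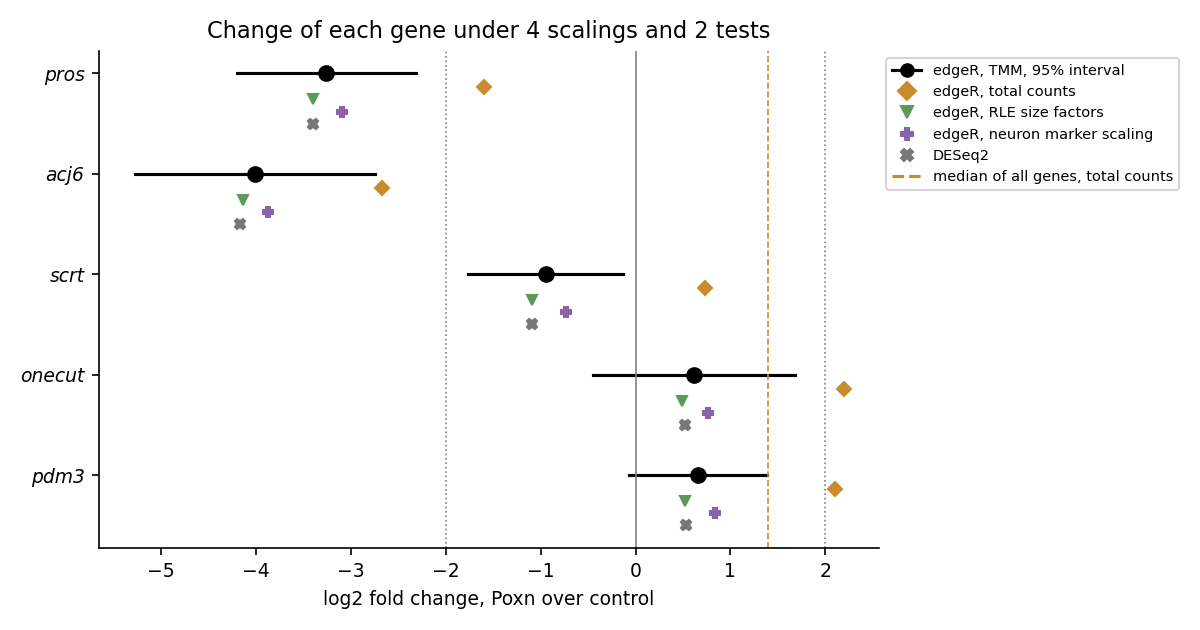
Log2 fold change, Poxn over control (horizontal axis), of the 5 tested genes, as a black point with its 95% interval from edgeR with TMM factors and as coloured symbols under other scalings and DESeq2. Dotted lines mark the 4-fold limits and the dashed line the median of all genes with total counts, 1.39. pros and acj6 stay below 0 under every setting drawn, scrt changes sign with total counts, and pdm3 and onecut stay above 0.

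Ratios of counts within a library need no scaling factor, and 14 such ratios were computed after the data had been seen. Per 100 pdm3 counts, there were 29.8, 20.4 and 27.0 pros counts in the libraries labelled Poxn, against 362, 639 and 235 in those labelled control. Per 100 pdm3 counts, acj6 had 1.04, 0.840 and 0.365 in the libraries labelled Poxn and 18.6, 18.9 and 22.8 in those labelled control. The ratio of these 2 POU factors was thus 29.3-fold lower. The control values lay close together but rest on only 16, 17 and 94 acj6 counts, and the lowest Poxn-labelled value rests on 3. scrt per 100 pdm3 counts was 36.7, 31.9 and 36.7 in the libraries labelled Poxn, against 119, 141 and 68.5 in those labelled control, again without overlap. onecut per 100 pdm3 counts overlapped, at 4.25, 7.46 and 6.58 in the libraries labelled Poxn and 6.98, 8.89 and 4.36 in those labelled control.

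The same held against elav, the RNA-binding protein gene used to mark neurons, which itself had 13.2, 10.8 and 12.4 CPM in the libraries labelled Poxn and 15.7, 16.9 and 14.5 in those labelled control (log2 fold change −0.37, adjusted p = 0.418, edgeR). Per 100 elav counts, pros was 85.9, 67.6 and 68.3 in the libraries labelled Poxn and 622, 646 and 367 in those labelled control. acj6 was 2.99, 2.78 and 0.923 per 100 elav counts in the libraries labelled Poxn, against 32, 19.1 and 35.5 in those labelled control. Both were lower in every Poxn-labelled library, as they were against pdm3. In the other direction pdm3, the POU factor, was 288, 331 and 253 per 100 elav counts in the libraries labelled Poxn, against 172, 101 and 156 in those labelled control. onecut was 12.2, 24.7 and 16.6 per 100 elav counts in the libraries labelled Poxn, against 12, 8.99 and 6.79 in those labelled control, with the lowest Poxn-labelled library next to the highest control library. scrt was 106, 106 and 92.6 per 100 elav counts in the libraries labelled Poxn, against 204, 143 and 107 in those labelled control, and the nearest libraries differed by about 1 count per 100 of elav. acj6 per 100 pros counts overlapped, at 3.48, 4.11 and 1.35 in the libraries labelled Poxn and 5.14, 2.96 and 9.67 in those labelled control (exact permutation test on log2 ratios, two-sided, p = 0.3), so a difference between the falls of these 2 genes was not shown. Every ratio without overlap had p = 0.1 by the exact permutation test, the smallest it can give here, and adjustment over 14 ratios cannot bring it below that.

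**Figure D3:**
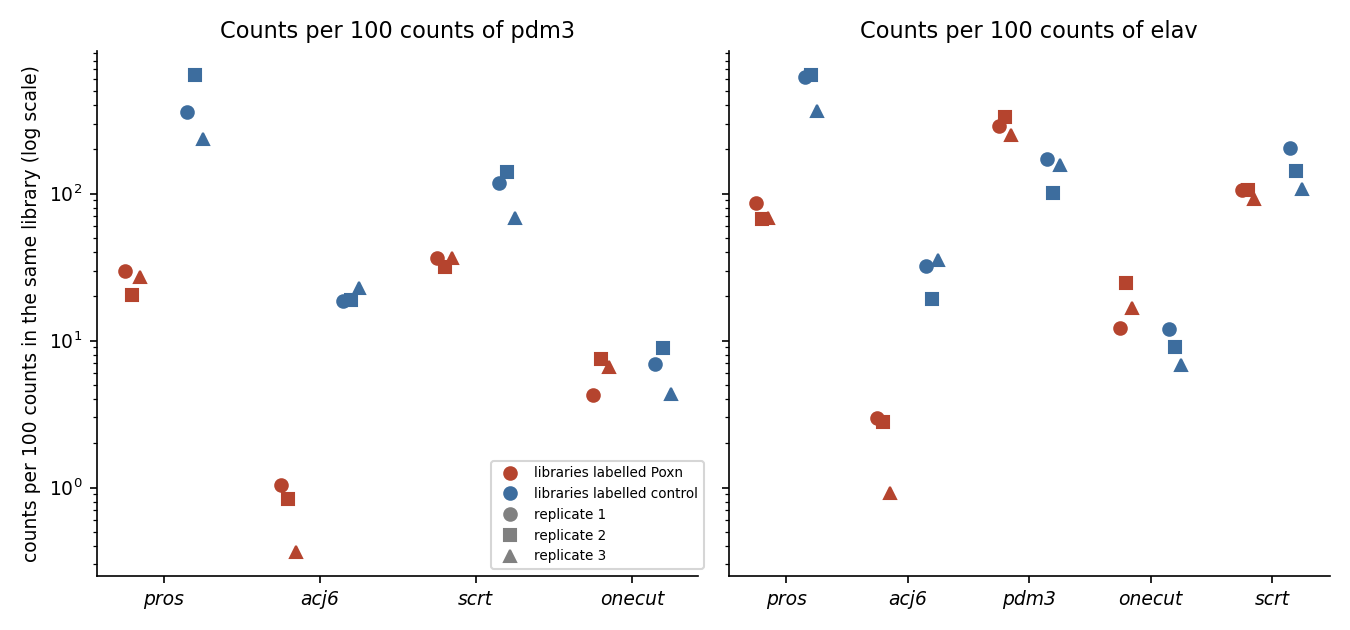
Counts of each gene per 100 counts of pdm3 (left panel) or elav (right panel) in the same library, on a log scale, with the libraries labelled Poxn left of those labelled control. pros and acj6 are lower in all Poxn-labelled libraries in both panels, and onecut overlaps in the pdm3 panel.

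Levels of different genes were compared per length, as FPKM (counts scaled by each library's counts on genes and by the length of all annotated exons). In the libraries labelled Poxn, pdm3 was first with 11.9 ± 0.871 FPKM, followed by scrt with 2.47 ± 0.211, pros with 0.661 ± 0.131, onecut with 0.576 ± 0.156, acj6 with 0.110 ± 0.0559 and sens at 0 (SD, n = 3). pros and onecut overlapped in this order, from 0.544 to 0.803 and from 0.422 to 0.733 FPKM, and the other neighbours did not. In the libraries labelled control, pdm3 had 2.76 ± 2.28 FPKM, pros 1.998 ± 0.921, scrt 1.48 ± 0.663, acj6 0.715 ± 0.669, onecut 0.1246 ± 0.0594 and sens 0.0240 ± 0.0213 (SD, n = 3). Between pdm3, pros and scrt, and between scrt and acj6, the ranges over control libraries overlapped, while acj6 was above onecut and onecut above sens in all of them. The place of pros depended on the lengths used. Its annotated transcripts run from 5526 to 23486 bases. With the shortest transcript of every gene taken as its length, pros came first in the control libraries, at 9.002 ± 4.15 FPKM. It kept rank 3 in those labelled Poxn. This length comparison was added after the data had been seen.

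Among the closest relatives of the 6 genes, 0 of 6 tested passed the criterion in either direction. With unadjusted p under 0.05, 2 of the 6 were lower in the Poxn-labelled libraries and 0 were higher (all tested genes, 17.8% and 14.1%), and DESeq2 called these same 2, vvl and CG12605, lower. Over all 8973 tested genes DESeq2 called 673 lower and 66 higher. vvl, a POU-domain factor gene that wing veins need, had 282 ± 54.9 CPM in the libraries labelled Poxn and 1945 ± 2176 CPM in those labelled control (SD, n = 3 each). Its control mean was raised by replicate 1 (4452 CPM, against 830 and 553 CPM in control replicates 2 and 3), and its log2 fold change of −2.78 had an adjusted p of 0.0809 (edgeR) and was −0.54 with total counts. CG12605, listed here as a relative of scrt, had 2.91 ± 0.486 CPM in the libraries labelled Poxn and 10.7 ± 6.67 CPM in those labelled control (log2 fold change −1.85, adjusted p = 0.0556, edgeR), and with total counts its log2 fold change was 0.00 to 2 decimals (adjusted p = 0.999). The POU factor gene nub, needed for wing growth, had 55.2, 58.5 and 63.8 CPM in the libraries labelled Poxn and 48.4, 66.6 and 37.0 CPM in those labelled control, which overlapped (log2 fold change 0.23, adjusted p = 0.683, edgeR), and its neighbour in sequence pdm2 had a log2 fold change of −0.91 (adjusted p = 0.356, edgeR), which turned to 0.94 with total counts. For ct, whose product selects external sense organs, the value was −0.74 (adjusted p = 0.311, edgeR), which turned to 1.08 with total counts. sens-2 had 39, 38 and 50 counts in the libraries labelled Poxn and 2, 6 and 39 in those labelled control, so it had reads where sens had almost none, with a log2 fold change of 0.08 (adjusted p = 0.932, edgeR).

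Many of the proneural and precursor genes, which act before the bristle cells are born, had few or no reads. Of 27 genes found in the files 14 were tested, and ac, sc, amos and E(spl)m8-HLH had 0 counts in all 6 libraries. At the criterion 0 of the 14 were called in either direction by edgeR and by DESeq2, and with unadjusted p under 0.05 there was 1 lower in the Poxn-labelled libraries and 2 were higher, no larger a share than the 17.8% lower and near the 14.1% higher over all tested genes. The smallest p belonged to neur, a ubiquitin ligase gene of Delta signalling, with 4.33 ± 1.08 CPM in the libraries labelled Poxn and 1.36 ± 0.389 CPM in those labelled control (log2 fold change 1.63, adjusted p = 0.0556, edgeR). The receptor gene N had a log2 fold change of −2.32 (adjusted p = 0.123, edgeR), with 3209 counts in control replicate 1 against 353 in control replicate 2. da and emc, a bHLH activator and its inhibitor, had log2 fold changes of 0.75 and 1.14 (adjusted p = 0.123 and 0.215, edgeR). The 14 genes had a median of 0.21 on the log2 scale, beside 0.01 over all tested genes.

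In a wider list of 51 neuronal identity factors, 32 were tested. None passed the criterion with edgeR, while with unadjusted p under 0.05 there were 9 lower and 3 higher in the Poxn-labelled libraries, beside 17.8% and 14.1% of all tested genes. DESeq2 called ara, Rx, ss and vvl (which stands in both lists) lower and 0 genes higher, beside 673 lower and 66 higher of all 8973 tested genes. At an adjusted p under 0.05, ss, caup and ara were lower and nerfin-1 was higher in the libraries labelled Poxn, that is 3 and 1 of 32. Over all tested genes 4.95% were lower and 2.69% higher at that threshold. ss, which encodes a bHLH-PAS factor of antennal and sensory neuron identity, had 16.7 ± 2.16 CPM in the libraries labelled Poxn and 73.2 ± 32.4 CPM in those labelled control (log2 fold change −2.13, adjusted p = 0.0300, edgeR). The Iroquois homeodomain genes caup and ara, known from bristle and vein patterning, had log2 fold changes of −1.53 and −2.19 (adjusted p = 0.0333 and 0.0438, edgeR). With total counts the log2 fold changes of ss, caup and ara were −0.39, −0.16 and −0.42. nerfin-1 encodes a zinc finger protein that keeps neurons differentiated. It had 20, 28 and 15 counts in the libraries labelled Poxn and 0, 0 and 2 in those labelled control. This was at least 1.33-fold higher when set against 3 counts in each control library (adjusted p = 0.0486, edgeR), and at least 5.49-fold higher with total counts. With so few control counts, nerfin-1 could enter the test only through the libraries labelled Poxn. It therefore had to differ to be tested at all. The median of the 32 genes was −0.67 with TMM factors and 0.88 with total counts, beside 0.01 and 1.39 over all tested genes.

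Several markers of chemosensory neurons and the sheath cell gene nompA were lower beside pros and acj6, but not every chemosensory neuron marker was. The sheath cell list holds only nompA and pros itself, and most of its summed counts are those of pros, so only nompA is described from it. nompA, whose product joins the dendrite tip to the cuticle and is made by sheath cells, had 10, 3 and 5 counts in the libraries labelled Poxn and 33, 140 and 379 in those labelled control (log2 fold change −6.44, standard error 0.62, adjusted p = 0.00172, edgeR). Of 8 tested markers of chemosensory neurons, 4 were called lower at the criterion and 6 at an adjusted p under 0.05, with 0 higher, beside 0.602% and 4.95% lower over all tested genes. The study had reported ppk23, ppk25, ppk29, Ir25a and Ir76b as enriched in control wings from these same libraries. The counts of called markers are therefore no independent result. Like acj6, 3 of these 8 (ppk23, ppk25 and VGlut) and nompA reached the filter's level in 0 of the libraries labelled Poxn and entered the test only through the control libraries, so they had to differ to be tested at all. The channel subunit gene ppk23, found in pheromone-sensing neurons, was at least 531-fold lower when set against 3 counts in each Poxn-labelled library (adjusted p = 0.000373, edgeR) and, by total counts, at least 174-fold lower. VGlut, the vesicular glutamate transporter gene, had 2, 1 and 1 counts in the libraries labelled Poxn and 148, 198 and 572 in those labelled control, at least 358-fold lower (adjusted p = 0.000296, edgeR), or at least 121-fold lower with total counts. The channel subunit genes ppk29 and ppk25 had log2 fold changes of −6.47 and −6.82 (adjusted p = 0.000373 and 0.00983, edgeR). In the same list fru was not called (log2 fold change −1.60, adjusted p = 0.0587, edgeR), and its value was −0.02 with total counts. For ChAT the groups overlapped (log2 fold change −0.16, adjusted p = 0.784, edgeR). With total counts ChAT was higher in the libraries labelled Poxn, without overlap (log2 fold change 1.28, adjusted p = 0.317, edgeR). Summed over all 9 listed genes, chemosensory neuron markers ran from 12.7 to 16.6 CPM in the libraries labelled Poxn and from 171 to 197 CPM in those labelled control.

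Of the 14 general neuron markers, 0 passed the criterion in either direction with edgeR. With unadjusted p under 0.05 there were 3 of 14 lower and 2 higher in the Poxn-labelled libraries, near the 17.8% and 14.1% of all tested genes, and DESeq2 called futsch lower. Over all 8973 tested genes DESeq2 called 673 lower and 66 higher. fne, an RNA-binding protein gene of the elav family, was lower at an adjusted p under 0.05 (15.1 ± 1.88 CPM in the libraries labelled Poxn and 42.8 ± 13.6 CPM in those labelled control, adjusted p = 0.0417, edgeR), but its log2 fold change turned to 0.16 with total counts (adjusted p = 0.896). Their summed level was 1070 to 1114 CPM in the libraries labelled Poxn and 716 to 3645 CPM in those labelled control, and no marker was at 0 in any library. Of 8 tested markers of mechanosensory neurons, ppk26 was called higher at the criterion, with 65.8 ± 16.1 CPM in the libraries labelled Poxn and 6.20 ± 2.90 CPM in those labelled control (adjusted p = 0.00954, edgeR). ppk and pain were higher at an adjusted p under 0.05 (log2 fold changes 2.89 and 1.43). At that threshold 4.95% of all tested genes were lower and 2.69% higher. The study had reported ppk, ppk26 and pain as enriched in Poxn wings from these same libraries. The glial list had 0 genes past the criterion, a median of 0.21 on the log2 scale, and pnt lower at an adjusted p under 0.05 (0.0333, edgeR; log2 fold change −0.15 with total counts). The wing selector genes vg, sd, ap, bi, salm, nub and en had counts in every library, and en was higher at an adjusted p under 0.05 (log2 fold change 2.29, adjusted p = 0.0377, edgeR). With unadjusted p under 0.05, 2 of these 7 were lower and 1 was higher, beside 17.8% and 14.1% of all tested genes. DESeq2 called bi lower and en higher. Of the flight muscle, hemocyte, fat body and male accessory gland lists, with 7, 6, 1 and 2 genes tested, 0 passed an adjusted p under 0.05 in either direction. Markers of antennal olfactory cells, where acj6 and pdm3 are best known, were low but not all absent. Obp83b was at 0 in all libraries, Orco had 0 to 4 counts in each, while the odorant-binding protein gene lush had 56, 82 and 57 counts in the libraries labelled Poxn and 0, 1 and 39 in those labelled control. The 6 markers summed to 2.41 to 3.46 CPM in the libraries labelled Poxn and 0 to 4.22 CPM in those labelled control. The part of cell numbers in the lower pros and acj6 levels was not tested.

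**Figure D4:**
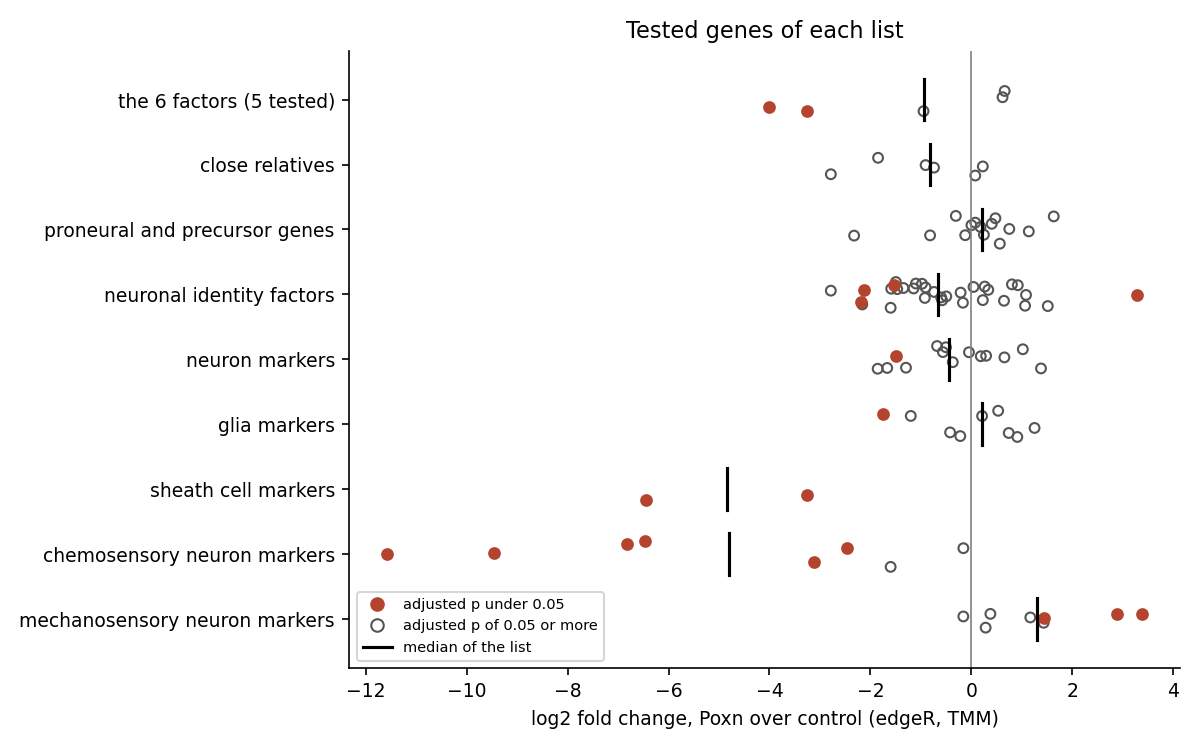
Log2 fold change, Poxn over control (horizontal axis, edgeR with TMM factors), of each tested gene of 9 lists, filled where the adjusted p was under 0.05, with a black bar at each list's median. The values drawn for ppk23, VGlut and nerfin-1 depend on the prior count, since 1 label has at most 3 counts per library. The 3 lists of other transcription factors hold 4 filled genes in all among 47 tested, where 7.63% of all tested genes passed in either direction. On the lower side 6 of 8 chemosensory neuron markers are filled. The chemosensory list holds genes that the study had reported from these same libraries.

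The profile of each tested gene over the 6 libraries was set beside that of every other tested gene by the root mean square difference of centred log2 CPM (prior count 2). pros and acj6 were 0.63 apart and stood 1.90 to 2.18 from pdm3 and onecut, which were 0.38 apart, with scrt between them at 0.76 to 1.46. The nearest genes to pros were CG9067 (0.29), CG12848 (0.32) and the tetraspanin gene Tsp47F (0.32), against a median of 1.83 over all genes. Nearest to acj6 were the neuropeptide receptor gene CCKLR-17D1 (0.27), Tsp47F again (0.49) and Snmp2 (0.49), a gene of the CD36 family. CCKLR-17D1 had 39, 41 and 29 counts in the libraries labelled Poxn and 58, 62 and 403 in those labelled control, a log2 fold change of −3.75. Tsp47F and Snmp2 had log2 fold changes of −3.35 and −4.01, and CG9067 and CG12848 of −2.97 and −2.91. The likeness was taken over the same libraries, so these values follow from the choice and no test is given. The nearest genes to the other factors were CG1927, Top1 and Ptp99A for scrt (0.06 to 0.11), Bili, CG6766 and TSG101 for pdm3 (0.07 to 0.09), and Sirt1, Mgat4a and DPCoAC for onecut (0.11 to 0.12). These are likenesses over 6 libraries that share their scaling factors, and they are given as a description.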

How the data were processed

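Wing poly(A)+ RNA was sequenced as paired reads. The authors used Trim Galore 0.4.0 for trimming, STAR 2.4.2a for alignment to a FlyBase release 6 genome, and HTSeq for counting. The deposited tables hold raw counts per gene. The HTSeq version, mode and strand setting are not given in the sources used here, so counts of overlapping and antisense genes are uncertain. Lines naming no gene (57.2% to 65.9% of each table) were left out. A DESeq2 table of the authors (normalized counts, fold changes and p-values) was not used, nor were its 6 columns of values per library.

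Counts were tested with edgeR 4.0.16 in R 4.3.3 (TMM, filterByExpr at 10 counts, glmQLFit and glmQLFTest, prior count 0.125, genotype as the only term). Standard errors come from the fold change and the F statistic, and 95% intervals are approximate. CPM used effective library sizes of 3183500 (control replicate 1, the least precise) to 30099145. Limits from 0 counts cover counting error only, since PCR copies are not independent molecules. Libraries of a label differed by more than sampling noise (chi-square per gene of 39.5 or more).

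The 6 factors and the lists were chosen with earlier results of these data known. Named were the 6 factors, Poxn, genes of each list past the criterion or with its 4 smallest p, and the 3 nearest genes to each tested factor. nub, sens-2, elav, Rx, Orco, Obp83b, sd, ap and genes at 0 were named after their values were seen. h, Dl, esg, fer3, para and Nplp2 were not matched and not analysed here. Alternatives were RLE factors, total counts, the 50 most abundant genes left out, DESeq2 1.42.0 with and without its prior, limma 3.58.1 (voom with quality weights), a robust fit, other filters, prior counts and thresholds, length offsets, a replicate block, each library left out, and, added later, neuron marker scaling. The fits were tested on simulated data with the same spread for both labels. That test does not cover the unequal spread of these libraries (20.1% for Poxn and 64.6% for control).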

Additional observations from a re-analysis of the deposited data

How the results depend on the processing

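The directions of pros, acj6, pdm3 and onecut held in all 21 alternatives of each, and that of scrt in 20, with 0.74 under total counts as the exception. Among the 21, changes of threshold alone reuse the main fit, so their direction could not differ. The pros call was lost with total counts (−1.60). The acj6 call was lost with total counts (−2.67), without the 50 most abundant genes (−4.02), with the robust fit (−4.01), no filter (−3.86), the filter of 10 counts in 3 libraries (−4.01), length offsets (−4.41) and neuron marker scaling (−3.87). Leaving out 1 library gave −3.56 to −3.04 for pros, −4.36 to −3.65 for acj6, −1.23 to −0.67 for scrt, 0.52 to 0.82 for pdm3 and 0.30 to 0.82 for onecut. Over its alternatives the adjusted p ran from 1.88e-12 to 0.185 for pros and from 4.58e-11 to 0.105 for acj6, the lowest from DESeq2.

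Over all genes, 54 were lower and 5 higher in the libraries labelled Poxn. These numbers were 673 and 66 with DESeq2, 616 and 57 with its prior, 218 and 14 with limma voom, 90 and 13 with no filter, 444 and 241 at an adjusted p under 0.05 alone, and, for genes higher, 3 with RLE factors and 85 with total counts. Without 1 library they ran from 3 to 222 and from 0 to 24. Of the other transcription factors listed, 0 passed, against 5 with DESeq2, 4 with its prior, 1 with limma voom, 4 at an adjusted p under 0.05 alone, and 0 to 1 without 1 library. Of the markers 6 passed, against 12, 11 and 13 with DESeq2, its prior and the adjusted p alone, and 1 to 7 without 1 library. The most genes were called without control replicate 3 and the fewest lower without Poxn replicate 1. The causes were not tested.

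With the replicate number as a block, 104 genes were lower and 14 higher, and none of the 5 tested factors changed its call. Deviations of libraries with the same number correlated at 0.12, 0.14 and −0.07 across 8973 genes, so the numbers were not taken as pairs, and control replicate 3 did not correlate best with its own number.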
